A study of Arabidopsis thaliana with 18 samples.

Results

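Seeds of the Arabidopsis thaliana accession Col-0 were compared between the latest and the earliest harvest of the study, 12-13 days and 8-9 days after flower opening. The comparison holds 6 of the 18 arrays of the series, 3 at 12-13 days and 3 at 8-9 days, and takes in all 19755 probe sets that are not control probe sets. The remaining arrays are 3 of Col-0 at 10-11 days and 9 of the accession C24, which was harvested at the same ages and serves here for a test of whether both accessions changed alike. Both Col-0 groups are seeds of the natural accession grown under long days, and the labels give no treatment other than the age at harvest. Each array was hybridised with RNA from 200 mg of seeds, freed by dissection from 48 pooled siliques, 8 of each of 6 plants. With 6 plants of an accession grown in each of 2 experiments, the pools of one age and of different ages drew on shared plants, so that a p-value here reflects how pools vary, not how plants vary. Which plants or experiment stood behind an array is not given in the sources used here.

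A developing seed holds an embryo, an endosperm that feeds it, and a maternal seed coat. In Arabidopsis the embryo first builds its organs by cell division, then fills its cells with oil and storage protein while it is green, and in late maturation makes protective proteins and sugars that let it survive drying. The endosperm shrinks as the embryo grows, and the seed coat, after laying down tannins and mucilage, dies and becomes a dry shell.

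The arrays of the 2 ages were sharply apart. Values are log2 intensities, so that a difference of 1 is a 2-fold change. Pearson's r over all probe sets was 0.992 to 0.996 between arrays of the same age and 0.865 to 0.878 between arrays of different ages. The median SD of a probe set over its 3 arrays was 0.129 at 12-13 days and 0.1 at 8-9 days. Array medians ran from 6.06 to 6.12, and 25th percentiles from 4.47 to 4.57. No detection measure comes with the values, and a mean under 4.41, the lowest 25th percentile of any array of the series, is called dim below, since it is not shown to lie above background. For arrays, their number limits the precision.

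Tissue markers with an annotated probe set are compared here between the ages, not between tissues. The only annotated embryo marker of 9, the oil body protein gene OLEO3, had 12.89, 12.96 and 13.01 at 12-13 days, against 13.39, 13.35 and 13.38 at 8-9 days. The 4 annotated seed coat markers of the 9 listed averaged 7.66 to 7.87 per array at 12-13 days, against 10.75 to 10.93 at 8-9 days. The only annotated endosperm marker of 7, the MADS-box gene AGL62, was dim in all 6 arrays, at 3.81 to 4.05 at 12-13 days against 3.49 to 3.58 at 8-9 days. ALC, the 1 annotated marker of 5 for the silique wall, a tissue removed by dissection, had 5.64 to 6.18 at 12-13 days against 6.12 to 6.38 at 8-9 days. The leaf and pollen markers were not analysed here, as none has an annotated probe set. The control probe sets gave a 3' minus 5' difference for the glycolytic enzyme GAPDH of 1.04, 1.06 and 1.52 at 12-13 days against 0.23, 0.17 and 0.46 at 8-9 days. A second GAPDH set shifted less, with 0.3, 0.41 and 0.62 at 12-13 days against 0.19, 0.14 and 0.12 at 8-9 days. The 3' minus 5' difference for actin ran the other way on average, with 1.05, 1.22 and 1.75 at 12-13 days against 1.86, 2.1 and 1.72 at 8-9 days. There the highest array of 12-13 days lay above the lowest of 8-9 days. In a second actin set the ages also overlapped, with 1.2, 1.63 and 2.35 at 12-13 days against 1.94, 1.89 and 1.79 at 8-9 days. The part of these shifts in the results was not tested.

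Most of the measured transcriptome differed between the 2 ages. In limma's test over all probe sets, 11975 of 19755 (60.6%) passed an adjusted p of 0.05, of which 5955 (30.1%) were higher and 6020 (30.5%) lower at 12-13 days. All 3 arrays of one age lay above all 3 of the other for 62.7% of probe sets. The median difference over all probe sets was 0.02. Since these changes are so common, a count of calls in a gene group is read against these shares. The lists were chosen with earlier results of these data known, so a count beside a share is a description, not a test. Of the called probe sets, 3528 (17.9% of those tested) changed at least 2-fold, 1659 (8.4%) upward and 1869 (9.46%) downward. The tails were unequal. At least 4-fold, 602 (3.05%) were higher and 548 (2.77%) lower, and at least 16-fold, 149 were higher and 56 lower. At least 64-fold, 39 were higher and 8 lower. Among the calls, 764 had both means under the dim level, and 1094 had one mean under it.

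**Figure D1:**
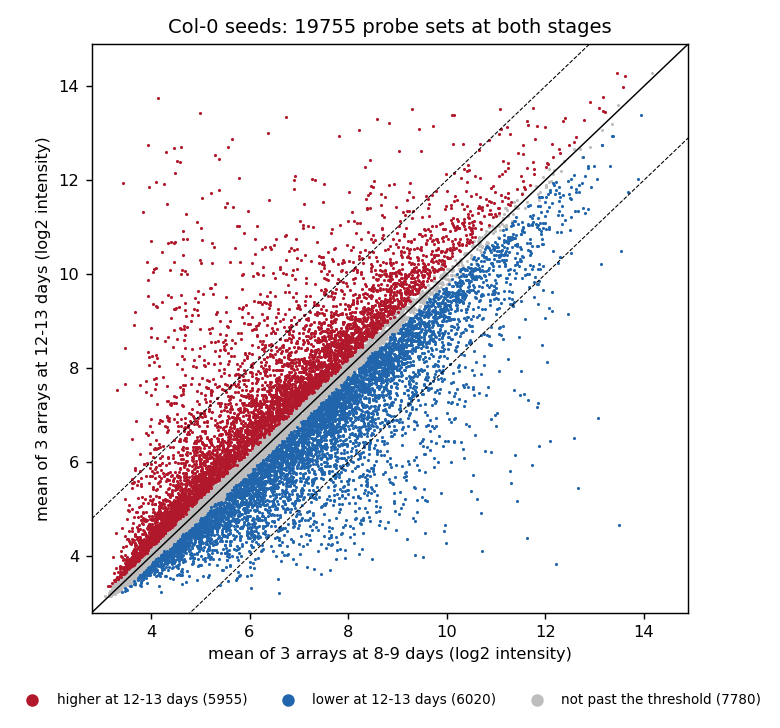
Mean log2 intensity of the 3 Col-0 arrays at 12-13 days (vertical) against that of the 3 at 8-9 days (horizontal), 1 point per probe set for 19755 probe sets, with the line of equality and dashed lines at 4-fold. Red points (5955) were higher and blue points (6020) lower at 12-13 days at an adjusted p under 0.05, grey points (7780) were not past it. Far from the dashed lines, more points lie above than below, as the counts past 16-fold, 149 higher and 56 lower, show.

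The 12 highest single-gene differences all belonged to genes with low intensities at 8-9 days and high ones at 12-13 days. AT4G38080 had 12.87, 12.7 and 12.7 at 12-13 days, against 3.97, 3.88 and 3.97 at 8-9 days, a log2 difference of 8.81 ± 0.11 (SE, limma adjusted p = 2.88e-20). AT1G19900 had 13.53, 13.33 and 13.46 at 12-13 days, against 4.91, 4.75 and 5.3 at 8-9 days, a log2 difference of 8.45 ± 0.25. In both genes the ages lay far apart, and no overlap between arrays was a condition for being named. AT3G60730 differed by 8.28 ± 0.17 on the log2 scale, with 12.58, 12.67 and 12.55 at 12-13 days and 4.6, 4.24 and 4.11 at 8-9 days. CYP78A9, a cytochrome P450 known to promote fruit and seed growth, had 12.75, 12.64 and 12.66 at 12-13 days, against 4.44, 4.65 and 4.33 at 8-9 days, a difference of 8.21 ± 0.15 or 296-fold. The other 8 are given by locus in the annotation used and have no name there. They are AT3G04170, AT2G22510, AT2G18370, AT1G68850, AT3G56350, AT1G14940, AT2G23540 and AT5G45690, with differences between 8.1 for AT3G04170 and 7.22 for AT5G45690. AT5G45690 was uneven at the early age, with 12.84, 12.85 and 12.92 at 12-13 days and 6.17, 4.7 and 6.09 at 8-9 days. In 5 of the 12 genes (AT3G60730, AT4G38080, AT2G22510, AT1G68850 and AT1G14940) the mean at 8-9 days was dim, so that the intensity difference there may understate the change in transcript.

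After CYP78A9, the 12 genes with a symbol that rose furthest had log2 differences between 6.58 for FACT and 3.5 for PPDK. FACT, an acyltransferase that joins caffeic acid to fatty alcohols for suberin-associated waxes, had 11.5, 11.82 and 11.53 at 12-13 days, against 4.97, 5.18 and 4.95 at 8-9 days, a difference of 6.58 ± 0.45. BGLU19, a beta-glucosidase, had 10.57, 10.79 and 10.6 at 12-13 days, against 4.4, 4.42 and 4.21 at 8-9 days, a difference of 6.31 ± 0.2 in which the mean at 8-9 days was dim. Both genes made most of their change after 10-11 days, by 5.51 for FACT and 5.15 for BGLU19, against 1.08 and 1.17 before. LTI30, a dehydrin induced by cold and abscisic acid, reached 10.01, 10.17 and 10.59 at 12-13 days, against 5.6, 5.57 and 5.64 at 8-9 days, 25.1-fold. AGL67, a MADS-box transcription factor, had 9.32, 9.33 and 9.05 at 12-13 days and 4.68, 4.95 and 5.17 at 8-9 days, a difference of 4.3 ± 0.13. The metallothionein MT1C rose by 4.21 ± 0.21 on the log2 scale, and HIS1-3, a linker histone induced by drought, by 3.88 ± 0.13. The chitinase ChiC rose by 3.85 ± 0.13, the cytochrome P450 gene CYP71B37 by 3.84 ± 0.18, and the dehydrin named LEA by 3.59 ± 0.21. ICL, the isocitrate lyase of the glyoxylate cycle, had 10.41, 10.73 and 10.48 at 12-13 days against 6.98, 6.77 and 7.16 at 8-9 days. NAMT1, a methyltransferase of nicotinate, and PPDK, which makes phosphoenolpyruvate from pyruvate, rose by 3.57 ± 0.14 and 3.5 ± 0.18. A call and no overlap between the ages were conditions for being named here, and 62.7% of all probe sets had no such overlap.

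Among probe sets with a single annotated gene, the steepest fall was that of GILT, a thiol reductase named after an enzyme of mammalian lysosomes. It had 4.43, 4.54 and 5.06 at 12-13 days, against 13.49, 13.52 and 13.48 at 8-9 days, a difference of -8.82 ± 0.37 (limma adjusted p = 2.61e-13) or 453-fold. ATPMEPCRD, a pectin methylesterase, had 5.26, 5.35 and 5.72 at 12-13 days, against 12.7, 12.71 and 12.62 at 8-9 days, a difference of -7.23 ± 0.27. JMT, which methylates jasmonic acid to its volatile ester, had 4.22, 4.16 and 3.97 at 12-13 days, against 10.59, 10.88 and 10.7 at 8-9 days, a difference of -6.61 in which the mean at 12-13 days was dim. The 9 other genes of the 12 lowest are AT4G15750, AT5G15180, AT1G56100, AT5G60630, AT1G50650, AT5G51950, AT5G52500, AT5G49180 and AT4G15390. Their differences ran between -6.25 for AT4G15750 and -4.6 for AT4G15390, and none of them has a name in the annotation used.

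After GILT, ATPMEPCRD and JMT, the 12 genes with a symbol that fell furthest had log2 differences between -4.54 for GH9C1 and -3.43 for SBT4.13. GH9C1, an endoglucanase of the wall, had 5.19, 5.25 and 5.62 at 12-13 days, against 9.82, 9.88 and 9.98 at 8-9 days. BAN, the anthocyanidin reductase that makes tannin precursors in the inner seed coat, had 7.54, 7.1 and 7.31 at 12-13 days, against 11.62, 11.74 and 11.63 at 8-9 days, 20.3-fold lower. PORB, a light-driven reductase of chlorophyll synthesis, had 5.74, 6.26 and 6.0 at 12-13 days, against 10.11, 10.0 and 10.16 at 8-9 days. Each of the 3 genes lay apart in all arrays. The thaumatin-like gene ATLP-1 fell by 4.44 on the log2 scale, the actin gene ACT11 by 4.19 and the glycosyltransferase gene UGT88A1 by 4.01. Smaller falls were those of the carboxypeptidase-like genes scpl20 (-3.91) and scpl35 (-3.44), the histone H2B gene HTB2 (-3.76), the ubiquitin ligase gene RING1 (-3.65), PRL (-3.5), a subunit of the helicase that licenses DNA replication, and the subtilase gene SBT4.13 (-3.43). Like the genes above, all 12 were named on condition of a call and no overlap between the ages. In bulk seed RNA, fewer cells of a type and less of a transcript per cell cannot be told apart, and this holds for each gene below.

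**Figure D2:**
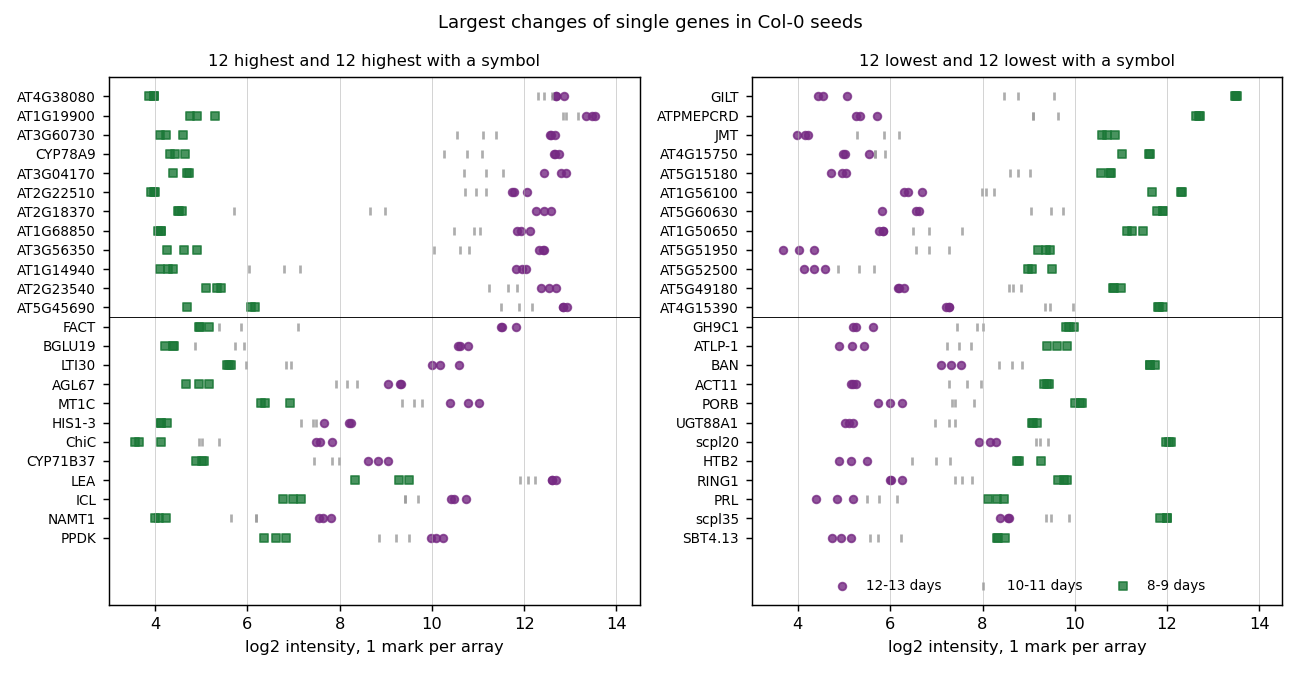
Log2 intensity in each array for the 24 genes named for the highest (left) and the 24 named for the lowest (right) differences, with circles for 12-13 days, ticks for 10-11 days and squares for 8-9 days, 3 arrays each. Genes below the line in each panel are those with a symbol. Circles and squares do not overlap in any of the 48 rows, as the rule for naming required. The ticks lie between them in most.

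The change was already large by 10-11 days. Of the 602 probe sets at least 4-fold higher over the span, 492 rose past the threshold in both steps, 73 in the first step alone and 28 in the second alone, and 9 rose and then fell back. Their median step was 1.78 from 8-9 to 10-11 days and 1.07 from 10-11 to 12-13 days, and 421 had the larger step first. Of the 548 at least 4-fold lower, 470 fell in both steps, 68 in the first alone and 7 in the second alone, with median steps of -1.72 and -1.06. Since the first and second step share the arrays of 10-11 days, their sizes are not independent. AT4G38080 changed by 8.5 on the log2 scale up to 10-11 days and by 0.31 after, whereas AT1G14940 changed by 2.4 and then by 5.28. The gene cwINV6, named for the family of wall invertases, had dim means of 4.0 at 8-9 days and 4.0 at 10-11 days and reached 6.93 at 12-13 days. JMT fell by 4.95 on the log2 scale up to 10-11 days and then fell by 1.65, and AT5G15180 fell by 1.9 and then fell by 3.9. The probe set that spread widest at 10-11 days among the 12 highest was that of AT2G18370, which averaged 4.53 at 8-9 days, 7.78 at 10-11 days and 12.42 at 12-13 days.

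**Figure D3:**
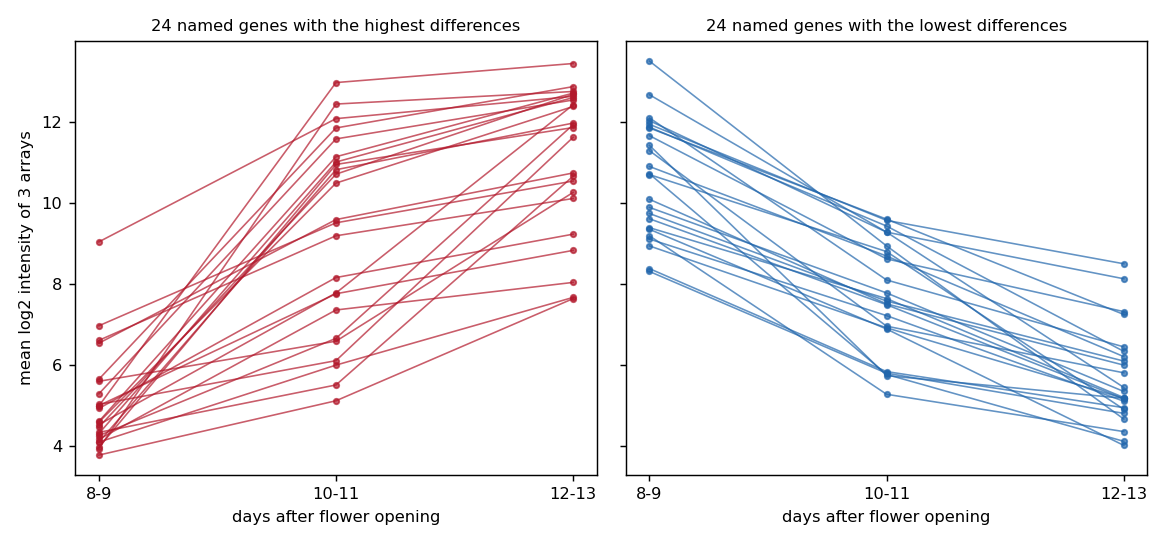
Mean log2 intensity of 3 arrays at 8-9, 10-11 and 12-13 days after flower opening for the 24 named genes with the highest (left, red) and the 24 with the lowest differences (right, blue), 1 line per gene. Most red lines rise more steeply in the first step, and a group that includes FACT, BGLU19 and AT1G14940 rises mainly in the second.

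A further 365 probe sets passed no test over the whole span but peaked or dipped between its ends. Past the threshold in both steps, 228 rose and then fell, and 137 fell and then rose. XTH16, a xyloglucan-remodelling enzyme of the wall, averaged 5.04 at 8-9 days, 6.85 at 10-11 days and 5.23 at 12-13 days. UGT74D1, a glycosyltransferase, averaged 6.67, 7.85 and 6.46 at the same ages. AT2G47440 and AT1G69760 also peaked in the middle, by 0.94 and 1.0 over 8-9 days. The deepest dips were those of AT4G20860, at 8.98, 7.48 and 8.9, and of AT4G16400, AT2G37585 and AT5G61340, with first steps of -1.02, -0.92 and -0.88 and second steps of 0.86, 0.72 and 0.91.

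The few annotated storage protein genes and maturation regulators were higher at the later age, and the 2 annotated oil body genes were not. Of the 9 embryo markers listed, LEC1, FUS3, LEC2, ABI3, CRA1 and OLEO1 are among those without an annotated probe set. All 5 genes of the seed storage protein list rose, with a median log2 difference of 1.52, against 30.1% rises among all probe sets. PAP85, a vicilin-type globulin, had 13.23, 13.26 and 13.31 at 12-13 days, against 11.68, 11.16 and 12.01 at 8-9 days, and its mean at 10-11 days was already 13.26. AT1G03890, held in the list by its locus, had 13.52, 13.52 and 13.47 at 12-13 days, against 9.79, 7.9 and 10.22 at 8-9 days, a difference of 4.21 ± 0.36. Replicate 2 of 8-9 days was the lowest of its group in both genes. It was also lowest in AT5G45690, AT3G15670, AT3G02480, ICL, SDP1 and AT1G62210. In CYP78A9 and BGLU19 it was highest, but by small margins at low intensities. Its gaps in AT1G03890, AT5G45690 and AT1G62210 were far larger. AT2G28490 rose by 1.52 ± 0.13, AT2G18540 by 1.03 and AT4G36700 by 0.63 ± 0.1. The 2 oil body genes differed little, with OLEO3 lower by a log2 difference of -0.42 ± 0.06 and AT3G01570 at 0.12 ± 0.07 (limma adjusted p = 0.121), and both stood at 12.89 or above in every array. The 3 maturation regulators rose. AGL18, a MADS-box factor active in embryos, had 9.37, 9.24 and 9.44 at 12-13 days, against 7.93, 7.99 and 8.08 at 8-9 days. EEL, a bZIP factor that acts on late embryogenesis genes, rose by 1.22 ± 0.11, and BZIP53, an activator of maturation genes, by 0.84 ± 0.09.

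The listed genes of LEA proteins, which protect cell contents during drying, rose in most cases. Among all probe sets, 30.1% rose and 30.5% fell. Of 27 listed genes, 17 rose, 2 fell and 8 did not pass, with a median of 1.74, and 17 of the 27 changed at least 2-fold, against 17.9% of all probe sets. AT3G15670, held in the list by its locus, had 12.83, 12.75 and 12.56 at 12-13 days, against 5.6, 5.04 and 6.04 at 8-9 days, 143-fold higher. AT3G02480 had 13.01, 12.99 and 13.21 at 12-13 days, against 8.35, 7.87 and 8.48 at 8-9 days. AT2G23110, AT3G17520 and AT4G21020 rose by 5.16, 4.91 and 4.68 on the log2 scale. AT2G44060 fell by 1.14 and DI21 by 0.41. The dehydrin COR47 had a difference of -0.08 ± 0.11 (limma adjusted p = 0.541), and M17, a dim probe set, of 0.19. In the list of other cold and drought genes, 8 of 13 rose and 3 fell. XERICO, which raises abscisic acid levels, rose by 1.29 ± 0.1, the lipocalin gene TIL by 1.2 ± 0.08 and the clock-linked gene COR27 by 1.11, whereas HVA22C fell by 1.51. In the short list of heat shock genes, HSA32 had a difference of 1.47 ± 0.08 and Hsp70-2 of -2.24 ± 0.11, while AT5G48570 fell by 0.53 and CLPB2 did not pass (-0.04). Co-chaperones and folding factors of the endoplasmic reticulum were called about as often as all probe sets, of which 60.6% passed. Of 21, 5 were higher, 8 lower and 8 not passing, with the plastid chaperonin subunit genes Cpn60beta2 (-2.27) and Cpn60beta3 (-1.57) lowest.

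Genes of oil synthesis and of oil breakdown went both ways, where 30.1% of all probe sets rose and 30.5% fell. Of the 5 genes listed for fatty acid synthesis, 3 fell and 2 rose. The 3 that fell stand in the list by locus, AT5G10160 (-1.77 ± 0.08), AT2G22230 (-1.1) and AT1G24360 (-1.07). The 2 that rose were the thioesterase genes that release fatty acids from the plastid's carrier protein, FATB by 0.85 ± 0.08 and FaTA by 0.3 ± 0.09. The call on FaTA was lost without replicate 1 of 12-13 days, where its difference was 0.23. ATP-citrate lyase, which makes cytosolic acetyl-CoA, fell in all 4 of its annotated subunit genes, with ACLA-2 at 7.98, 7.69 and 7.73 at 12-13 days against 9.14, 9.09 and 9.54 at 8-9 days, ACLB-1 at -0.74, ACLA-1 at -0.71 and ACLA-3 at -0.33. Together with the citric acid cycle, 10 of these 15 probe sets fell, 5 did not pass and 0 rose. In the list for oil breakdown and the making of sugar from it, 3 of 5 rose, ICL, PPDK and the oil body lipase gene SDP1, the last with 7.61, 7.55 and 7.83 at 12-13 days against 5.82, 5.52 and 5.94 at 8-9 days. AIM1, an enzyme of beta-oxidation, fell by 0.59, and SDP1-LIKE did not pass (-0.1). Breakdown of branched-chain amino acids and lysine showed 2 higher, 3 lower and 4 not passing of 9. The bifunctional lysine-degrading enzyme LKR/SDH (AT4G33150) rose by 1.12 ± 0.08, while MCCB, a subunit of the leucine-degrading carboxylase, fell by 1.3.

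The listed genes of the photosynthetic machinery fell almost throughout. Among 17 genes for the photosystems, electron transport and the Calvin cycle, 14 fell, 1 rose and 2 did not pass, with a median of -1.3, against 30.5% falls among all probe sets. LHCB4.1, an antenna protein of photosystem II, had 9.13, 9.36 and 9.35 at 12-13 days, against 12.15, 12.0 and 12.1 at 8-9 days. CaS, a calcium-binding thylakoid protein, had 5.96, 6.22 and 5.93 at 12-13 days, against 9.18, 9.16 and 9.3 at 8-9 days, the largest fall of the list at -3.18 ± 0.14. The photosystem I subunit genes PSAN and PSAE-1 fell by 2.33 and 2.06, and the second antenna gene LHCB4.2 fell by 2.11. PSB27, which helps assemble photosystem II, was the exception and rose by 0.49 ± 0.1, while NdhL (0.26) and PGRL1B (0.15) did not pass. Thylakoid assembly factors fell in 13 of 14 cases, led by AT1G52220 (-2.22 ± 0.07) and the chlorophyll-binding LIL3:2 (-1.77), with PIFI higher by 0.62 ± 0.2. Chlorophyll synthesis had 7 lower, 1 higher and 3 not passing of 11 genes, with a median of -1.7. After PORB the methyltransferase gene CHLM fell furthest, with 7.29, 7.35 and 7.24 at 12-13 days against 9.97, 9.99 and 10.13 at 8-9 days, followed by the magnesium chelatase gene CHLI2 at -2.13 ± 0.11. HEMA2, a second copy of the first committed enzyme, rose by 0.46 ± 0.1. Editing factors and PPR proteins of plastid RNA changed less, with 7 of 17 lower, 1 higher and a median of -0.22, and PPR596 lowest at -1.15. With a second quantile normalization, 11 of these 17 fell.

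The listed core cell division genes were lower at 12-13 days, where 30.5% of all probe sets fell. All 15 genes of that list fell, with a median of -1.36 and a range from -0.3 for CDC27a to -3.5 for PRL. AUR1, a mitotic Aurora kinase, had 5.1, 5.29 and 5.16 at 12-13 days, against 8.59, 8.67 and 8.46 at 8-9 days. The topoisomerase gene TOPII had 4.96, 5.14 and 4.38 at 12-13 days, against 8.07, 8.42 and 8.03 at 8-9 days. BUB3.1 and AUR3, both of mitosis, fell by 2.38 and 2.23. HTR12, the histone H3 variant of centromeres, fell by 2.02 ± 0.14. A longer list of replication, repair and mitosis genes was more mixed, with 16 of 30 lower and 5 higher. Its lowest were the chromosome-binding proteins 3xHMG-box2, at 6.19, 6.5 and 6.54 at 12-13 days against 9.92, 9.68 and 9.75 at 8-9 days, and 3xHMG-box1 (-2.57), and its highest was the translesion polymerase subunit gene REV7 (0.75). The 5 higher calls became 3 without replicate 3 of 12-13 days. Histone and chromatin genes had 7 of 9 probe sets lower, 2 not passing and 0 higher, with HTB1 at -1.67 after HTB2. Microtubule genes fell in 11 of 15 cases, with a median of -1.06. The tubulin gene TUA6 had 9.6, 9.53 and 9.37 at 12-13 days, against 11.26, 11.18 and 11.35 at 8-9 days. The relatives SP1L3 and SP1L2, which share a family with the microtubule protein SPIRAL1, parted, at -2.03 ± 0.1 and 2.83 ± 0.15. Among genes for RNA polymerases and ribosome building, 11 of 23 fell and 4 rose, with a median of -0.21, NRPB9B lowest (-1.18) and NRPB6A highest (0.94).

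**Figure D4:**
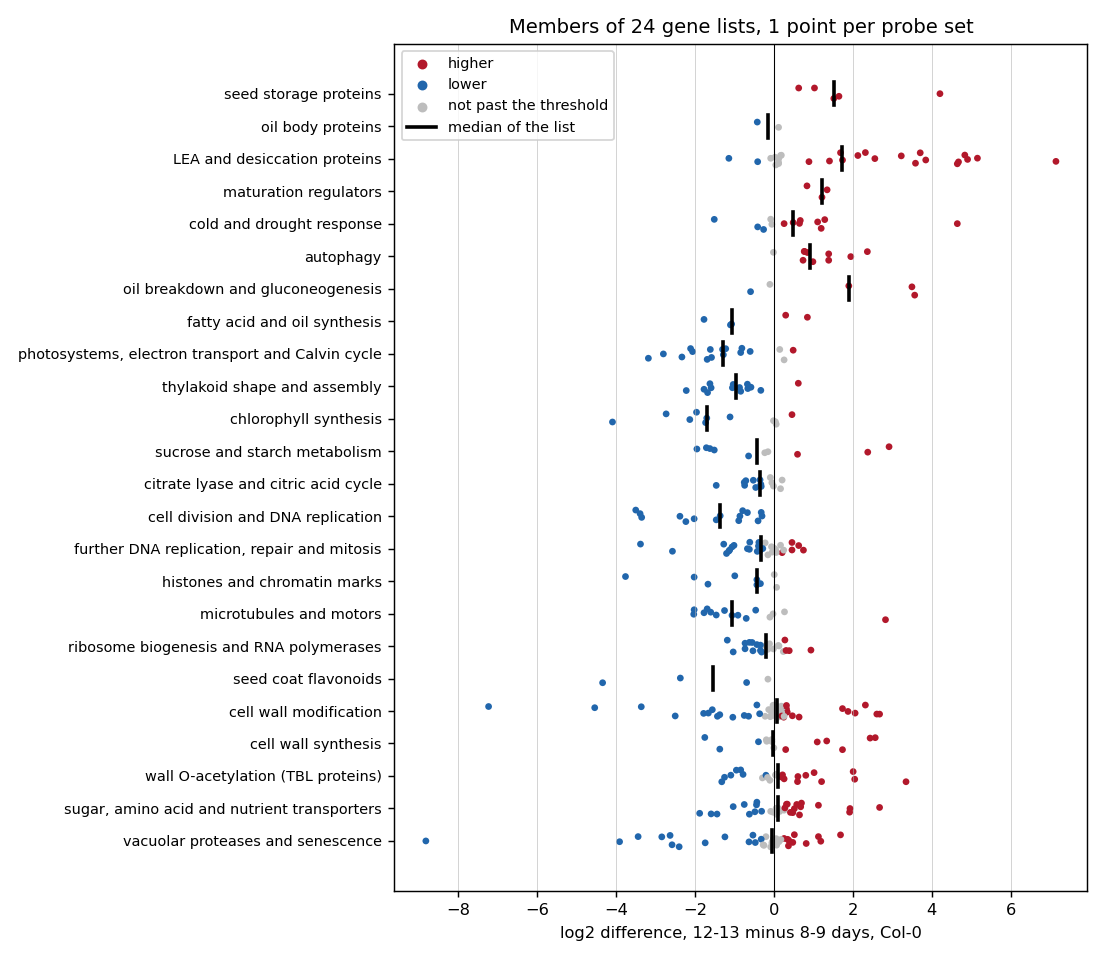
Log2 difference of Col-0, 12-13 minus 8-9 days, for each probe set of 24 gene lists, with red for higher, blue for lower and grey for not past the threshold, and a black bar at the median of the list. The storage, LEA and autophagy lists lie to the right of 0, the photosynthesis, chlorophyll and cell division lists to the left, and the wall, transporter and protease lists on both sides.

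Most listed seed coat genes fell, where 30.5% of all probe sets did. Of 4 flavonoid genes 3 fell, BAN, DFR and the chalcone isomerase-like gene CHIL (-0.69), while UF3GT did not pass (-0.15). DFR, which acts before BAN in the tannin branch, had 8.6, 8.45 and 8.45 at 12-13 days, against 10.83, 10.95 and 10.83 at 8-9 days. The 2 mucilage genes both fell, the subtilase gene ARA12 by 2.08 and AT3G50990, which the lists hold by its locus, by 3.55. The step of the flavonoid genes came early, with DFR at -2.2 from 8-9 to 10-11 days and -0.17 after, and BAN at -3.04 and -1.3. BAN, DFR, ARA12 and AT3G50990 are also the 4 seed coat markers given above, and a loss of seed coat RNA and lower transcript levels in the coat cannot be told apart here. In the list for cutin, suberin and wax, FACT and AT4G13840 (0.39) rose, WSD1, a wax ester synthase, fell by 0.7, and SHN3 (-0.08) and GSO1 (0.12) did not pass. The 6 genes of the list for endosperm growth had 3 of 8 probe sets higher, 2 lower and 3 not passing. This is near the 30.1% rises and 30.5% falls among all probe sets. AGL62, dim in all 6 arrays, IKU1 and AGL80 were higher by 0.39, 0.3 and 0.27. The call on AGL80 was lost without replicate 3 of 8-9 days, where its difference was 0.16, and the 3 probe sets of the DNA demethylase gene DME gave -0.99, -0.34 and 0.07, the last not passing. The call on the probe set at -0.34 was lost in 4 of the other settings, among them the one without replicate 2 of 8-9 days (-0.24).

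Genes for wall modification were called about as often as all probe sets. Of 49 such genes, 13 rose, 14 fell and 22 did not pass, with a median of 0.07, against 30.1% rises and 30.5% falls among all probe sets. Single members moved far in either direction. The expansin gene EXPA15 had 12.06, 12.02 and 11.75 at 12-13 days, against 9.41, 9.15 and 9.23 at 8-9 days, and EXPA16 rose by 2.61. The expansin-like gene EXLA1 went the other way, with 9.74, 9.44 and 9.7 at 12-13 days against 12.17, 11.98 and 12.23 at 8-9 days. Of the endoglucanase family, GH9C1 and GH9B5 fell by 4.54 and 3.36. In wall synthesis 6 of 14 rose and 3 fell. The xylan gene IRX15-L rose by 2.57 ± 0.1 and the xyloglucan backbone gene CSLC5 by 2.44 ± 0.1, whereas the xylan gene GUT2 fell by 1.75 ± 0.11. The TBL family, whose members add acetyl groups to wall polymers, had 11 of 24 probe sets higher and 7 lower, with TBL30 at 8.72, 8.43 and 8.53 at 12-13 days against 5.11, 5.29 and 5.23 at 8-9 days. TBL45 was the lowest at -1.32. Of 8 wall peroxidase and laccase genes 4 rose and 1 fell. With the dimmest 30% of probe sets left out, and members among them not counted, 2 rose. LAC16 (1.69) and PRX52 (1.35) were highest, and the very bright PRXR1 did not pass (-0.16).

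Sugar genes moved both ways, where 30.1% of all probe sets rose and 30.5% fell. In sucrose and starch metabolism 5 of 10 fell, 3 rose and 2 did not pass. The starch enzymes DPE1 (-1.95 ± 0.15), APL3 (-1.71 ± 0.13), APL4 (-1.62) and SBE2.2 (-1.51 ± 0.11) fell. The sucrose phosphate synthase gene ATSPS4F had 8.93, 8.55 and 9.06 at 12-13 days, against 6.41, 6.62 and 6.36 at 8-9 days. The gene cwINV6, named for the family of wall invertases, had 6.93, 6.92 and 6.94 at 12-13 days. At 8-9 days it had 3.86, 4.1 and 4.06, with a dim mean. AMY1, an amylase, rose by 0.6. Among 33 transporters 14 rose, 10 fell and 9 did not pass, with a median of 0.11. GTR2, which imports glucosinolates, rose by 2.68 ± 0.12, and the sugar exporters SWEET2 and SWEET7 by 1.93 ± 0.14 and 1.92 ± 0.13. SWEET1, of the same family, had 7.94, 7.85 and 7.84 at 12-13 days, against 9.77, 9.73 and 9.78 at 8-9 days, and AtVEX1 of the same list fell by 1.59. Glucosinolate genes rose in 5 of 7 cases, including BCAT4 (1.93 ± 0.16), which starts methionine chain elongation, while AT2G25450 fell by 1.51.

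The listed autophagy genes rose nearly together. The 10 listed genes gave 9 higher and 1 not passing, with a median of 0.92, against 30.1% rises among all probe sets. ATG8E, one of the small proteins that coat the growing autophagosome, had 9.16, 8.82 and 9.13 at 12-13 days, against 6.6, 6.53 and 6.87 at 8-9 days, and ATG8H rose by 1.95 ± 0.11. ATG3, the enzyme that joins ATG8 to lipid, had a difference of -0.01 ± 0.07. Vacuolar proteases and senescence genes, 35 in all, gave 10 higher, 13 lower and 12 not passing, where 30.5% of all probe sets fell. With the dimmest 30% of probe sets left out, and members among them not counted, 6 were higher. Most members are serine carboxypeptidase-like genes, of which SCPL34 (-2.84) and SCPL45 (-2.63) fell most after scpl20 and scpl35 and scpl31 rose most (1.69). Vacuolar sorting and proton pump genes gave 8 higher, 4 lower and 5 not passing of 17, none past 2-fold. Ubiquitin enzymes gave 9 higher and 7 lower of 31, from PUB43 (2.34 ± 0.09) to UBC20, of a group that marks cyclins for breakdown, at 4.73, 4.78 and 4.5 at 12-13 days against 8.01, 7.96 and 7.83 at 8-9 days. The proteasome subunit gene RPN12a fell by 0.41. Beta-glucosidases gave 8 higher, 3 lower and 10 not passing of 21, with BGLU46 (2.23) next to BGLU19 and BGLU44 lowest (-3.23 ± 0.17). Redox enzymes had 6 of 25 higher and 11 lower, with the glutaredoxin gene GRXC1 at 10.64, 10.67 and 10.58 at 12-13 days against 8.06, 7.93 and 7.93 at 8-9 days, and GSTU20 lowest (-1.46). Aldehyde dehydrogenases fell in 6 of 8 cases, ALDH3F1 furthest (-1.64), and ALDH2C4 rose by 0.2, with the call lost in 3 of the other settings, among them the one without replicate 1 of 8-9 days (0.15). Defensin-like peptide genes had 5 of 13 higher and 3 lower, with PDF2.1 (1.99 ± 0.08) and LCR69 (-1.91 ± 0.09) at the ends. Under the same limit to brighter probe sets, 2 were higher.

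Hormone and regulatory genes were represented in part. Over all probe sets 30.1% rose and 30.5% fell. The auxin, bZIP, IQD and TRM, and tetraspanin lists were called in either direction about as often as all probe sets, of which 60.6% passed. Of 4 gibberellin genes, the receptor genes GID1A (-1.19 ± 0.14) and GID1B (-0.5) and the F-box gene SLY1 (-0.64) fell, and the third receptor gene GID1C did not pass (0.09 ± 0.08). Among 6 cytokinin response regulators, RR16 had 9.6, 9.43 and 9.57 at 12-13 days, against 6.28, 6.43 and 6.81 at 8-9 days, whereas ARR15 had 4.43, 4.39 and 4.45 at 12-13 days, against 6.16, 6.21 and 6.24 at 8-9 days. RR16 and ARR15 are both of the type that dampens cytokinin signalling. EIN3, the central ethylene transcription factor, rose by 1.26 ± 0.09. Auxin genes gave 7 higher, 3 lower and 7 not passing of 17, with the repressor genes IAA34 (1.53) and IAA29 (1.27) and the conjugating enzyme gene WES1 (1.3) highest. Of 21 bZIP factors 10 rose and 3 fell, BZIP24 highest (1.52) and bZIP44 lowest (-0.69). Of 6 WRKY factors 4 rose, led by WRKY6 (1.43 ± 0.08). With the dimmest 30% of probe sets left out, and members among them not counted, 2 rose. Single members of other families were the NAC factor NAC014 (0.38, and 0.3 with its call lost without replicate 3 of 8-9 days), MYBC1 (-0.43, and -0.25 with its call lost without replicate 2 of 8-9 days) and the homeobox gene PHV (-1.34). The IQD and TRM proteins, which bind microtubules, gave 10 higher, 8 lower and 11 not passing of 29, from IQD26 (1.82 ± 0.12) to iqd15 (-1.71 ± 0.14). Tetraspanins had 4 higher and 4 lower of 13, from TET8 (1.06) to TET3 (-1.54), with 2 higher without replicate 1 of 8-9 days. The cation exchangers of the CHX family had 1 of 7 higher (CHX20, 0.53) and 1 lower (CHX19, -0.38).

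Most Col-0 calls were also called in the same direction in C24 over this span, and the difference between the accessions' changes was tested. Of the Col-0 calls, 4569 rose and 4981 fell in both accessions, 88 rose in Col-0 and fell in C24, and 47 fell in Col-0 and rose in C24. Each of these 135 also passed the test of the difference. A further 2290 Col-0 calls had no call in C24, of which 455 passed the test of the difference. In all, the change differed for 2100 of 19755 probe sets (10.6%), with the Col-0 change above that of C24 for 1166 (5.9%) and below it for 934 (4.73%), and it did so at least 2-fold for 484 (2.45%). BAN fell by 4.34 in Col-0 and fell by 2.65 in C24, a difference of -1.7 between the changes (limma adjusted p = 6.22e-05). COR47 changed by -0.08 in Col-0 and by -1.62 in C24, a difference of 1.54 ± 0.16. SP1L2 rose by 2.83 in Col-0 seeds, against 0.51 in seeds of C24, a difference of 2.32 ± 0.21. The changes of the sugar exporter gene SWEET7 were 1.92 in Col-0 and 2.48 in C24, with no call on the difference (limma adjusted p = 0.0549).

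**Figure D5:**
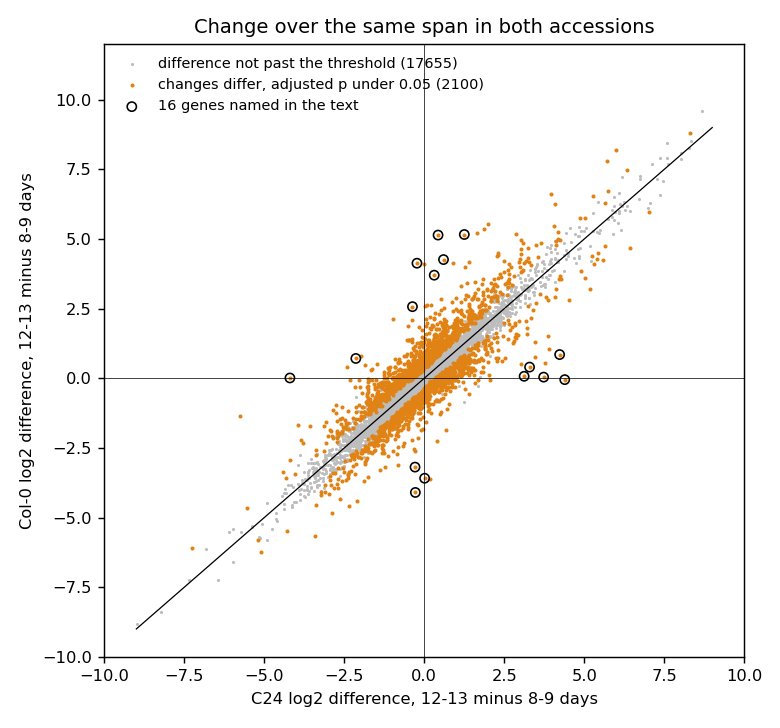
Log2 difference 12-13 minus 8-9 days in Col-0 (vertical) against that in C24 (horizontal), 1 point per probe set, with the line of equality. Orange points (2100) differed between the accessions at an adjusted p under 0.05, and circles mark the 16 genes named for the largest such differences, most of which lie near 0 in one of the accessions. For the remaining probe sets the difference did not pass the threshold.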

How the data were processed

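The authors deposited log2 intensities per probe set of Affymetrix ATH1 arrays in a table of all 18 arrays. Per the labels, the authors kept only probes identical in the Col-0 and C24 genomes and matching TAIR10 gene models, with 3 or more probes per probe set. The sources used here do not state the background correction, the normalization or the software. That table was used as deposited, with 11 control probe sets left out. Arrays were assigned to groups by their titles.

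A group-means model of all 18 arrays (6 groups of 3) was fitted with limma 3.58.1 in R 4.3.3 (lmFit, eBayes), with 12 residual and 5.8 prior degrees of freedom. P-values were adjusted over 19755 probe sets by the Benjamini-Hochberg method, with a threshold of 0.05. The test was tested on simulated data. An exact permutation test of 3 arrays against 3 cannot go below 0.1. Differences are 12-13 minus 8-9 days, with the model's SE, and the accession test is the Col-0 change minus the C24 change.

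Platform annotation named 1 gene for 11763 probe sets, several for 61 and none for 7931, and RefSeq (TAIR10.1) matched 11718. Of these, 1418 carry a symbol beyond the locus number. Named are the 12 highest and 12 lowest called genes whose ages do not overlap, the next 12 and 12 with a symbol, from each list up to 6 called, 2 against the majority and 2 not passing, 8 and 8 for the accession difference, up to 6 whose probe sets are called in opposite directions, and up to 4 peaks and 4 dips. ACLA-3, AMY1 and CDC27a are named outside this rule, after their values were seen. Lists and members were chosen with earlier results of these data known. Lists of genes for abscisic acid, aquaporins, lipid transfer and raffinose held no annotated probe set. Figures were drawn with matplotlib.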

Additional observations from a re-analysis of the deposited data

Results flagged for a closer look

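The change from 8-9 to 12-13 days differed between Col-0 and C24 for 2100 probe sets by the test of the difference itself, and the 8 genes furthest in each direction are given here. The values are the Col-0 change minus the C24 change on the log2 scale, each past limma's adjusted threshold.

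In 6 genes Col-0 rose at least 2 log2 units more than C24. AT1G62210 (4.7 ± 0.58) had 12.96, 12.9 and 13.0 at 12-13 days and 8.54, 6.13 and 8.79 at 8-9 days in Col-0, whereas C24 was high at both ages, with means of 12.55 and 12.12. AT2G43535 (4.36) and AT2G03980 (2.94) showed the same form, with C24 means of 9.23 and 9.37 at 12-13 days and 9.46 and 9.74 at 8-9 days. AT2G23110 (3.91), AT5G51500 (3.65) and AT4G14980 (3.39) started dim or near it in both accessions, and their means at 12-13 days were 9.4, 8.85 and 7.8 in Col-0, against 5.36, 4.73 and 3.97 in C24.

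In 2 further genes the difference rested mainly on a fall in C24. AT5G41250 (4.22) averaged 4.49 at 12-13 days and 4.48 at 8-9 days in Col-0, against 5.81 and 10.01 in C24. AT4G35725 (2.85) rose by 0.71 in Col-0 and fell by 2.14 in C24.

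On the other side, 3 genes fell in Col-0 and stayed low in C24. AT2G15325 (-3.82) averaged 5.42 at 12-13 days and 9.53 at 8-9 days in Col-0, against 4.82 and 5.11 in C24. AT1G11590 (-3.6) and AT2G43660 (-2.9) had Col-0 changes of -3.59 and -3.19, against C24 changes of 0.01 and -0.29.

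In 5 genes C24 rose and Col-0 changed little. IRX15, a gene of xylan synthesis, averaged 3.78 at 12-13 days and 3.84 at 8-9 days in Col-0, against 8.24 and 3.85 in C24, a difference between the changes of -4.44 ± 0.17. The defensin-like gene LCR67 differed by -3.06, AT5G38780 by -3.69, AT2G27570 by -3.38 and AT1G22550 by -2.88. The Col-0 means of IRX15, LCR67, AT5G38780 and AT2G27570 were dim at both ages.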

How the results depend on the processing

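Of 11975 calls over the span, 3528 were also at least 2-fold. Without the extra fold limit, the count ran between 10075 and 12201 over 14 other settings, and leaving out 1 of the 6 arrays at a time gave 11202 to 11660 calls. The lowest, 10075, came from leaving out the dimmest 30% of probe sets, so that fewer were tested. The accession difference gave 1634 to 2116 calls when 1 array was left out and 1892 to 2156 under the other settings. The deviations of same-numbered arrays of the 2 ages from their group means gave r = -0.006, 0.095 and -0.212. Those of differently numbered arrays ran from -0.223 to 0.226. With 3 arrays a group, these values cannot show whether same-numbered pools share plants or an experiment. With the replicate number as a block, 11985 probe sets passed over the span and 2076 for the accession difference. All 48 genes named for their size kept their call throughout. Of 335 single-gene results past the threshold, 322 kept their call under all settings, 13 lost it under at least 1, and 0 turned round. AT2G27900 had probe sets at 0.55, -0.04 and -0.31, and the last lost its call without replicate 2 of 12-13 days (-0.2). D2HGDH (0.46) lost its call without replicate 1 of 12-13 days (0.3). Of 85 results not past the threshold, 36 passed under at least 1 setting. The planned promoter motif shares were not run, as no sequences were used here. Dim levels and the number of arrays limit small differences.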
